A study of Homo sapiens with 4 samples.

Results

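NRF2 (gene NFE2L2), its relative NRF1 (NFE2L1), the repressors KEAP1 and BACH1 and the small MAF genes MAFF, MAFG and MAFK were described in A549 cells, a human lung adenocarcinoma line, with and without knockdown of the splicing regulator RBM10. The 7 genes were taken by name, and all 7 were among the 17041 genes of the deposited expression table. Of the 3768 events of the deposited splicing table, 3 belonged to these genes, 1 each in NFE2L1, MAFG and MAFK. The group was selected on the contrast of knockdown with wild type in these same libraries (RPKM and PSI), in which MAFK and NRF2 target genes had been seen to differ, so the values of the 7 genes are a description and not a test. MAFK was the member with the highest ratio of knockdown to wild type, at 157% of its wild-type mean, and KEAP1 the one with the lowest, at 73.5%.

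NRF2 is a transcription factor that switches on genes of antioxidant defence, glutathione synthesis and detoxification. KEAP1 holds NRF2 in the cytoplasm and hands it to a CUL3 ubiquitin ligase, and A549 cells are known for a defective KEAP1 and a constantly active NRF2. NRF2, NRF1 and BACH1 bind DNA only as pairs with a small MAF protein, which has a DNA-binding domain and no activation domain of its own, so that small MAFs serve activators and repressors alike.

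Cells of both groups were A549. There were 2 RBM10 wild-type libraries and 2 RBM10 knockdown libraries, in which a lentivirus had delivered an shRNA against RBM10 and the cells had been selected with puromycin at 1 µg/mL for 10 to 14 days. The labels speak of stable populations and name no clone. No control construct or puromycin is named for the wild-type cells, and loss of RBM10 therefore cannot be told apart from transduction and selection. Relative depth, read from the steps of low values, lay between 84.5% and 100.0% of the deepest library. Knockdown left 29.5% of the wild-type mean of RBM10 itself. Of 12 marker genes, 7 were in the table. The epithelial genes KRT18 (890 and 973 RPKM in wild type, 1731 and 1855 RPKM after knockdown), KRT8 (325 and 370, then 689 and 666) and EPCAM (1.51 and 1.87, then 4.03 and 3.99) were higher in knockdown, while CDH1 lay between 2.78 and 3.40 RPKM. The fibroblast genes PDGFRB and LUM were higher in both knockdown libraries too, at no more than 0.0736 and 0.177 RPKM, and the endothelial gene PECAM1 reached 0.0130 RPKM. The part of these differences in the members' values was not tested.

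Levels are given in RPKM, reads per gene length and sequencing depth. Genes with a single exon are nearly missing from the table (17 of 980 coding genes), so the values probably count reads that cross splice junctions. The unit was inferred, and the gene lengths behind it are unknown, so ratios, sums and orders of RPKM across genes hold for the deposited values and need not be those of transcript numbers. A low value need not mean low expression either: PSMA2, a core proteasome subunit that every cell uses, was at 0.388 to 0.439 RPKM. Each difference is knockdown minus wild type in log2(RPKM + 1), a scale that makes differences of weakly expressed genes look smaller. Separate cultures are not named for the replicates, so p-values reflect the spread of these 4 libraries alone, possibly a technical one, and in bulk RNA fewer expressing cells and less RNA per cell cannot be told apart.

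**Figure D1:**
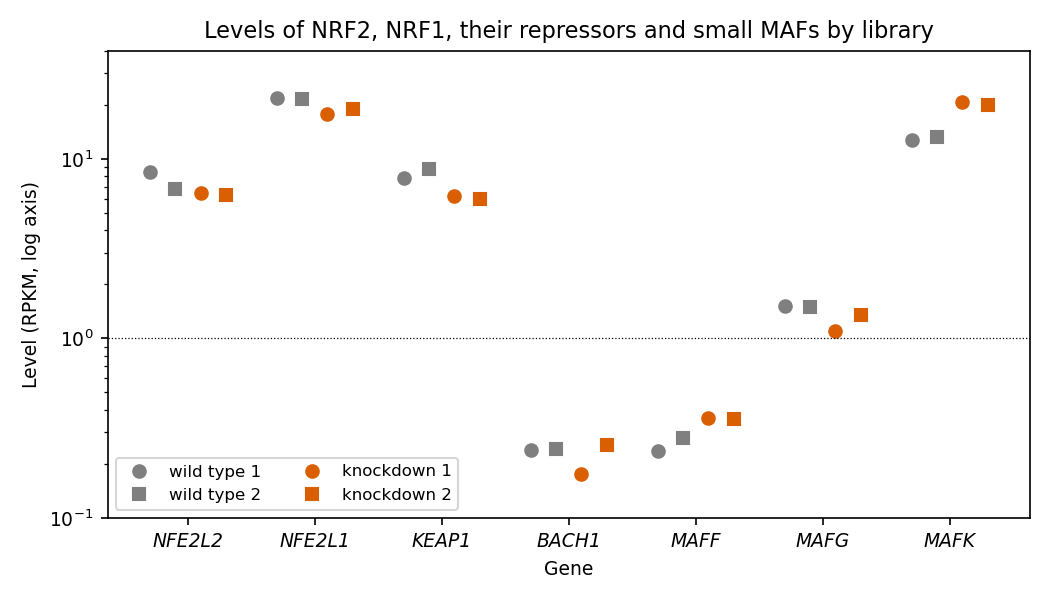
Level of each of the 7 genes (x axis) in RPKM on a log axis (y axis), with 1 point per library, grey for RBM10 wild type and orange for RBM10 knockdown, circles for replicate 1 and squares for replicate 2; the dotted line marks 1 RPKM. MAFK lies at 12.8 and 13.2 RPKM in grey against 20.7 and 20.04 RPKM in orange, and BACH1 and MAFF lie below 1 RPKM in every library.

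NFE2L2, the gene of NRF2 (chromosome 2, 177227595 to 177392697, minus strand, hg38), measured 8.47 and 6.78 RPKM in wild-type replicates 1 and 2, against 6.42 and 6.27 RPKM in knockdown replicates 1 and 2. Wild-type replicate 1 stood above the other 3 libraries, which lay close together. The difference was -0.22 (SE 0.12) with all libraries and -0.08 without wild-type replicate 1. NFE2L1 (chromosome 17, 48048329 to 48061487, plus strand) encodes NRF1, a factor anchored in the endoplasmic reticulum that restores proteasome genes when the proteasome is impaired. In the same order it measured 21.7, 21.6, 17.8 and 19.0 RPKM, a difference of -0.23 (SE 0.10), and the groups did not overlap. The deposited RPKM of NFE2L1 was 2.56 to 3.19 times that of NFE2L2 in the 4 libraries.

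KEAP1 (chromosome 19, 10486120 to 10503741, minus strand) measured 7.80 and 8.77 RPKM with RBM10 intact, against 6.20 and 5.98 RPKM after knockdown. Both knockdown libraries lay below both wild-type libraries, with a difference of -0.39 (SE 0.11). Without wild-type replicate 2 the difference was -0.31, without knockdown replicate 1 it was -0.41 and without knockdown replicate 2 it was -0.36, and in each of these 3 fits KEAP1 did not reach limma's threshold, which it passed with all 4 libraries. BACH1 (chromosome 21, 29194071 to 29630751, plus strand), a heme-sensitive repressor that occupies NRF2 sites together with a small MAF, had low values in the table, with 0.240 and 0.241 RPKM in wild type against 0.175 and 0.255 RPKM after knockdown. The 2 knockdown values lay on either side of the wild-type values. BACH1 averaged under 1 RPKM and was not tested in the main fit. With no filter on low values its difference was -0.03 (limma adjusted p = 0.713).

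The small MAF genes did not move together. MAFK (chromosome 7, 1530714 to 1543043, plus strand) went from 12.8 and 13.2 RPKM with RBM10 intact to 20.7 and 20.04 RPKM after knockdown, a difference of 0.61 (SE 0.10), and the gap between the groups was wider than that between replicates. MAFG (chromosome 17, 81918270 to 81927714, minus strand) measured 1.52 and 1.495 RPKM with RBM10 intact, against 1.10 and 1.34 RPKM after knockdown, a difference of -0.18 (SE 0.11). Its knockdown libraries lay below the wild-type ones but were farther apart from each other than the wild-type replicates were. MAFF (chromosome 22, 38200767 to 38216511, plus strand), the small MAF known for induction by inflammatory cytokines, measured 0.235 and 0.279 RPKM with RBM10 intact, against 0.358 and 0.357 RPKM after knockdown, which put both knockdown libraries above wild type at a level under 1 RPKM.

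Of the summed deposited RPKM of the 3 small MAF genes, MAFK made up 87.9% and 88.1% in the wild-type libraries and 93.4% and 92.2% in the knockdown libraries. The sum itself was 14.5 and 14.97 RPKM in wild type, against 22.1 and 21.7 RPKM after knockdown, so that the higher MAFK was not offset by the lower MAFG.

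In wild type the order of levels was NFE2L1, MAFK, then KEAP1 and NFE2L2, whose values overlapped, then MAFG, and last MAFF and BACH1, whose values also overlapped. In knockdown MAFK stood above NFE2L1 in both libraries, and the order of the others was NFE2L2, KEAP1, MAFG, MAFF and BACH1. The ratio of MAFK to NFE2L2 RPKM was 1.51 and 1.95 in the wild-type libraries and 3.22 and 3.20 in the knockdown libraries. The ratio of MAFK to KEAP1 RPKM went from 1.64 and 1.51 to 3.33 and 3.35. The ratio of NFE2L2 to KEAP1 RPKM was 1.09 and 0.773 in wild type and 1.03 and 1.05 in knockdown, and the knockdown values lay between those of the wild-type replicates.

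**Figure D2:**
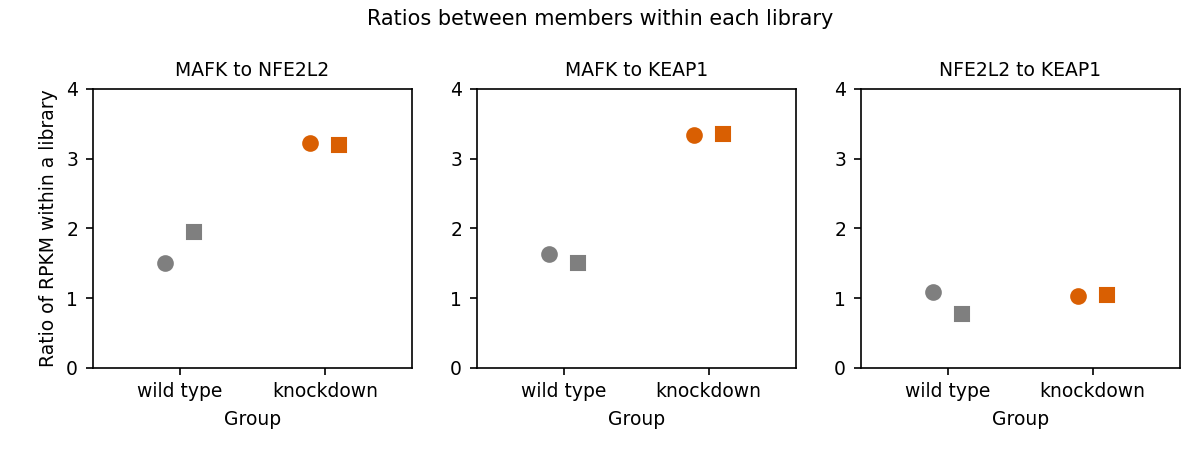
Ratio of RPKM between 2 members within a library (y axis, from 0) for RBM10 wild type (grey) and RBM10 knockdown (orange), with 1 point per library, circles for replicate 1 and squares for replicate 2. MAFK to NFE2L2 and MAFK to KEAP1 are higher in both knockdown libraries (3.20 to 3.35) than in both wild-type libraries (1.51 to 1.95), while NFE2L2 to KEAP1 overlaps between the groups.

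Of the 7 members, 4 (NFE2L2, NFE2L1, KEAP1 and MAFG) were lower and 2 (MAFK and MAFF) higher in both knockdown libraries than in both wild-type libraries, and BACH1 overlapped. Groups did not overlap in 56.1% of all genes of the table, with 35.8% higher and 20.3% lower. Only genes averaging at least 1 RPKM in wild type or in knockdown were tested, which kept 5 members and left out BACH1 and MAFF. In limma with Benjamini-Hochberg adjustment over the 10182 genes tested, 2 members passed an adjusted p of 0.05, MAFK as higher and KEAP1 as lower, where 22.3% of all tested genes passed (15.3% higher and 7.03% lower). Nothing is read from this count, because the members were chosen with the same contrast known. Over 11 other settings the difference of MAFK lay between 0.58 and 0.65, and its call held in 11 of 11, while that of KEAP1 was lost in 5 of 11. All of these settings start from the same deposited RPKM. Whether reads of the MAFK splicing event described below also count towards the RPKM of MAFK was not tested.

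The genes whose 4 centred log2 values lay closest to those of MAFK were ERGIC1, LENG8 and DNAAF3, with root mean square distances of 0.0064, 0.012 and 0.013. ERGIC1, a membrane protein of the compartment between endoplasmic reticulum and Golgi, measured 44.9 and 46.7 RPKM with RBM10 intact, against 72.0 and 69.3 RPKM after knockdown. Closest to NFE2L2 were LAPTM4B, TCP1 and TRMO, with distances of 0.0093, 0.016 and 0.018. TCP1, a subunit of the chaperonin that folds actin and tubulin, measured 78.9 and 64.5 RPKM with RBM10 intact, against 62.3 and 61.9 RPKM after knockdown, with the same single high library as NFE2L2. DNAAF3 (1.26 and 1.32 RPKM, then 2.62 and 2.43) and TRMO (1.46 and 1.06, then 0.917 and 0.937) had low values. There the added 1 of the log2 scale makes differences look smaller, so being close on this scale does not mean an equal ratio of RPKM. These likenesses rest on 4 libraries that share their preparation and are descriptions only.

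The splicing table gives for each event a PSI, the share from 0 to 1 of an examined junction among competing junctions, of which the printed background junction may be only 1. Read counts are not given, so the depth behind each PSI is unknown. The authors give a spread of PSI for each event, and the smallest listed is 0.15. It is not the full range over the libraries: it was 0.185 for NFE2L1, whose PSI ran from 0.738 to 1. The lack of an event for NFE2L2, KEAP1, BACH1 and MAFF therefore says only that none was listed. In 3 of the 3 listed events both knockdown libraries lay above both wild-type libraries, which held for 27.9% of the 3744 events with 4 values. The sign depends on which junction is the examined one, so it has no common meaning across the 3 events. In none of the 3 events did an annotated coding base lie at the junction ends or between them (0 of 3). The 3 events concern the untranslated parts of NFE2L1, MAFG and MAFK.

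**Figure D3:**
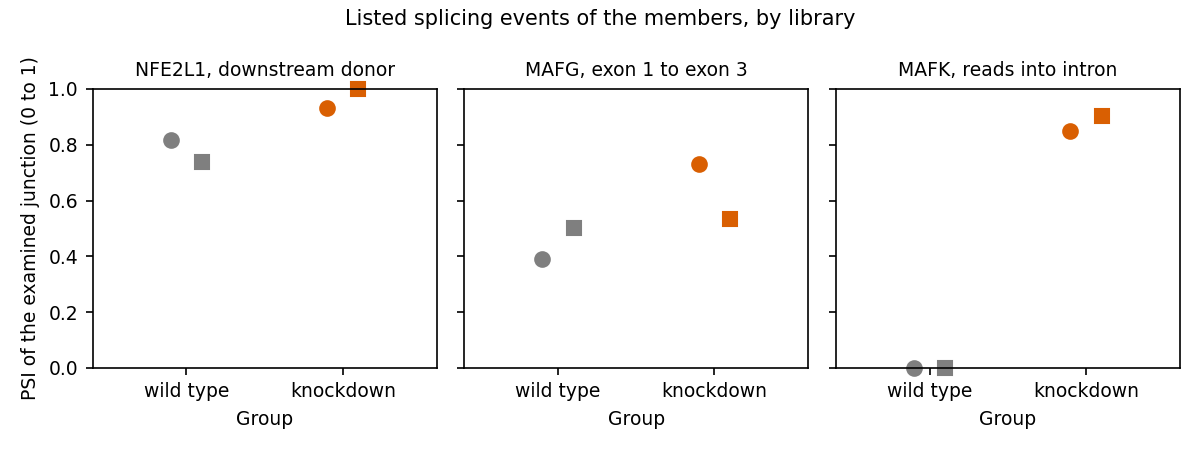
PSI of the examined junction (y axis, 0 to 1) in RBM10 wild type (grey) and RBM10 knockdown (orange) for the listed event of NFE2L1, MAFG and MAFK, with 1 point per library, circles for replicate 1 and squares for replicate 2. MAFK goes from 0 in both wild-type libraries to 0.850 and 0.904, and in MAFG knockdown replicate 2 (0.534) lies close to wild-type replicate 2 (0.500).

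The MAFK event was annotated by the authors' table as intron retention. Its examined position, chromosome 7, 1542298 to 1542299, is the edge between an intron and the last exon of the transcript MAFK-202, and its PSI was 0 in both wild-type libraries and 0.850 and 0.904 in the knockdown libraries. Of the 3744 events, 2 had a larger absolute difference. In limma, 4 events passed (0.107% of events), MAFK among them. Nothing is read from this rank or this call, because the event was chosen with the same contrast known. With wild-type replicate 1, wild-type replicate 2, knockdown replicate 1 or knockdown replicate 2 left out, 0 events passed in limma, 312 to 373 had an unadjusted p under 0.05, and the difference of MAFK lay between 0.850 and 0.904.

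What the event treats as intron is exon in the protein-coding transcript MAFK-201. In GENCODE v29, MAFK-201 ends in 1 exon from 1539941 to 1543043 that holds the last coding base at 1540372 and 2671 bases beyond it, and the edge lies inside that stretch. MAFK-202, annotated as a target of nonsense-mediated decay, splices out bases 1541275 to 1542298, and both transcripts have the same 156 codons. The background junction of the event is another arrangement, in which the base at 1542168, 894 bases downstream of the donor of MAFK-202, is joined to the same acceptor, removing 130 bases. This junction is in none of the MAFK transcripts of GENCODE v29 (0 of 3). A wild-type PSI of 0 means that none of the reads counted for the event fell on the edge. Since the number of these reads is unknown, the share of MAFK transcripts that differed between the groups cannot be told.

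The 3 splice sites of the MAFK 3' untranslated region are shown because the event turns on them and their ends tell the strand. They were read 5′ to 3′ on the plus strand from the GENCODE v29 sequence of MAFK-201 (hg38), with the first or last 2 intron bases in capitals.
MAFK-202 donor, chr7:1541265-1541290: tcatttgacgGTgagcaggactcagg
inner donor, chr7:1542159-1542184: cgtggccgtgGTaggtaatccatatt
shared acceptor, chr7:1542273-1542302: ttttcgtaacaatctttcttttccAGtttg
The removed stretch of the background junction starts with GT at the inner donor and ends with AG, the usual ends of an intron, on the strand of MAFK.

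The edge also lies within the last exon of TMEM184A, a gene on the opposite strand, whose exon runs from 1542235 to 1547181 and covers the last 64 intron bases. Whether the counting used strand is not given in the sources used here, and the part of TMEM184A reads in this PSI was not tested. TMEM184A measured 3.80 and 4.13 RPKM with RBM10 intact, against 3.79 and 3.47 RPKM after knockdown, and neither knockdown library was above wild type. Among 609 events annotated as intron retention, 34 went, like MAFK, from 0 in each wild-type library to a positive PSI in each knockdown library (5.58%), and 4 showed the reverse (0.657%), so MAFK was 1 of several such events.

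**Figure D4:**
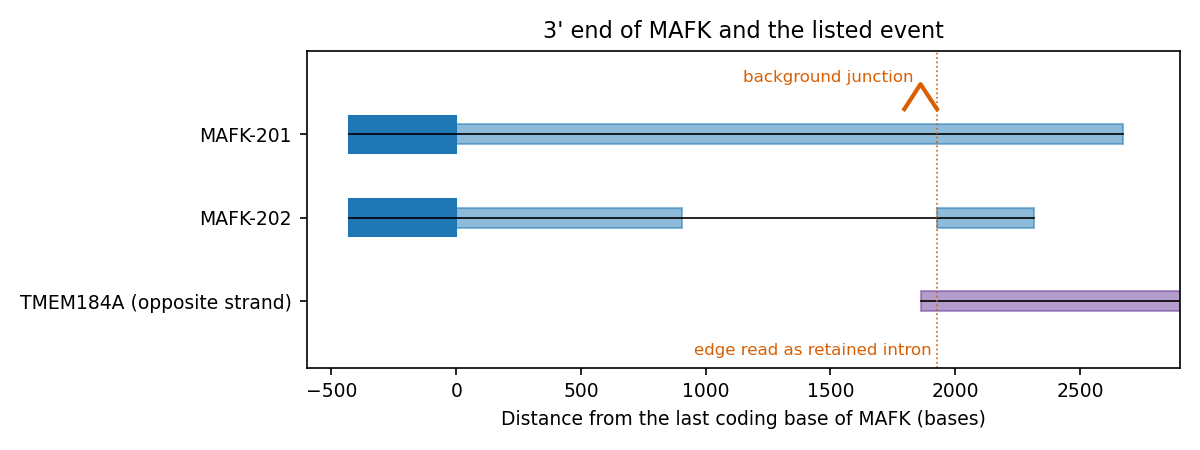
End of MAFK drawn to scale by distance from its last coding base (x axis, in bases), with coding parts as tall dark boxes, untranslated exon parts as pale boxes and introns as lines, and the overlapping exon of TMEM184A, cut off at the right border, in purple. The edge read as retained intron (dotted line) lies inside the single last exon of MAFK-201, and the background junction (orange) removes 130 bases just before it.

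The NFE2L1 event was an alternative donor in the 5' untranslated region. Its examined junction, chromosome 17, 48050819 to 48051117, is that of the transcript NFE2L1-222, and its background junction starts 192 bases upstream, at 48050627, and is in none of the 23 NFE2L1 transcripts of GENCODE v29. PSI was 0.815 and 0.738 in wild type and 0.933 and 1 in knockdown, a difference of 0.19 (SE 0.09). Other transcripts such as NFE2L1-203 run through the whole stretch without splicing. Since the examined and background junctions differ only in the donor, both are printed with the shared acceptor, from the sequence of NFE2L1-203 on the plus strand, with the terminal intron bases in capitals.
upstream donor, chr17:48050618-48050643: aacccccctgGTaagtgtggaggagg
downstream donor, chr17:48050810-48050835: tgtggagaaaGTaagtcacgtgggcc
shared acceptor, chr17:48051091-48051120: aaagcataaacattctggtccttcAGcaat
Both donors have GTAAGT at the start of the intron. The coding sequence begins 2 bases after the first base of the exon at the acceptor, so the choice of donor changes the leader and leaves the start codon in place.

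The MAFG event concerned the leader exon. The examined junction joins exon 1 to exon 3 of the authors' numbering (81927528 to 81923214, as in MAFG-201), and the background junction joins exon 2 to exon 3 (81923353 to 81923214, as in MAFG-202, which starts at its exon 2, and in MAFG-203, which includes it between the others). PSI was 0.389 and 0.500 in wild type and 0.731 and 0.534 in knockdown, a difference of 0.19 (SE 0.10). Knockdown replicate 1 stood apart, and without it the difference was 0.089. The 2 joined leaders are printed 5′ to 3′ on the minus strand, with the 4 bases around the junction in capitals, because the bases to the right are shared and those to the left tell the leaders apart.
MAFG-201, exon 1 joined to exon 3: cgggcccgcagtgTGAGagcgcctgctcgc
MAFG-202, exon 2 joined to exon 3: gctgcctcctatcAGAGagcgcctgctcgc
Both transcripts encode the same 162 codons. MAFG thus had lower RPKM and a larger share of the junction from exon 1 to exon 3 in knockdown, neither of which passed limma. That share is not the share of leaders with exon 1, because MAFG-203 has exon 1 and the background junction.

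Of the members, 6 share bases with a gene annotated on the other strand, and KEAP1 does not. MAFG also overlaps SIRT7 on its own strand over 3054 bases, and SIRT7 measured 8.53 and 9.17 RPKM with RBM10 intact, against 8.47 and 6.48 RPKM after knockdown. The share of reads of these neighbours in the members' values was not tested.

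Genes that act on or through the members were taken from lists chosen with earlier results of these data known. The counts of these lists stand beside 15.3% higher and 7.03% lower among all genes tested. Of 18 genes of NRF2 turnover, 16 were tested, 1 rose and 1 fell, with a median difference of -0.09 against 0.02 over all genes tested. SQSTM1, which encodes p62, an autophagy receptor that captures KEAP1 and is itself a target of NRF2, fell from 154 and 176 RPKM to 93.0 and 89.0 RPKM (limma adjusted p = 0.000319). USP11, a deubiquitinase, rose from 19.6 ± 0.106 to 25.6 ± 0.615 RPKM (SD, n = 2 each, limma adjusted p = 0.0243). This call was lost in 4 of 11 alternatives, with the replicate number as a block and without wild-type replicate 2, knockdown replicate 1 or knockdown replicate 2. The count of turnover genes past the test as lower was 3 without wild-type replicate 2 and under quantile, cyclic loess and median-ratio scaling, and 2 with the filter at a mean of 5 RPKM. CUL3, the scaffold of the KEAP1 ligase, did not pass (limma adjusted p = 0.0515). It was chosen for naming after its values were seen.

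Of 8 genes of NRF1 processing, 6 were tested and 0 passed in limma, as 0 did at an unadjusted p under 0.05 (1 fell under quantile normalization). VCP, the ATPase that pulls NRF1 out of the endoplasmic reticulum, averaged 170 ± 9.59 RPKM with RBM10 intact and 148 ± 4.92 RPKM after knockdown (SD, n = 2 each). OGT, a glycosyltransferase, averaged 12.8 ± 1.94 and 13.2 ± 0.486 RPKM in the same order. Of the 7 other CNC, BACH and large MAF genes, NFE2L3 was the 1 gene at testable level, at 1.01 ± 0.248 and 1.02 ± 0.0679 RPKM.

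Of 32 NRF2 target genes, 16 fell, 1 rose and 15 did not pass, where 7.03% of all genes tested fell and 15.3% rose, and the median difference of the list was -0.31 against 0.02. The direction of this list was known from these same libraries, so the count is not independent evidence. OSGIN1, an oxidative stress response gene, went from 24.8 and 29.7 RPKM to 6.92 and 6.46 RPKM, the widest difference of the list (-1.87, SE 0.12). SRXN1, AKR1B10 and GCLC followed with -1.10, -0.99 and -0.89. IDH1, the cytosolic NADP-dependent isocitrate dehydrogenase, was the 1 target that rose, from 31.2 ± 3.57 to 47.5 ± 1.20 RPKM (SD, n = 2 each); it is named because it goes against its list. The count of lower targets was 12 to 17 with single libraries left out and 8 with no filter on low values.

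Of 9 tested BACH1 targets, 4 fell and 1 rose, beside 7.03% and 15.3% of all genes tested, with a median difference of -0.31. With no filter on low values, 1 of 11 passed as lower and 2 as higher. The 3 genes HMOX1, FTL and FTH1, of heme breakdown and iron storage, are in both target lists. HMOX1, heme oxygenase, fell from 108 and 123 RPKM to 67.1 and 60.6 RPKM, a difference of -0.84 (SE 0.11), beside BACH1 mRNA at 0.175 to 0.255 RPKM in the 4 libraries. FTL, FTH1 and GAPDH fell by 0.72, 0.51 and 0.47 on the same log2 scale. SLC40A1, the iron exporter ferroportin, rose from 2.09 ± 0.229 to 3.04 ± 0.140 RPKM (SD, n = 2 each; limma adjusted p = 0.0378). In 7 of 11 alternatives no BACH1 target passed as higher: without wild-type replicate 2, knockdown replicate 1 or knockdown replicate 2, under quantile and cyclic loess normalization, with a replicate block, and with the filter at a mean of 5 RPKM, which leaves SLC40A1 out. It lies outside the rule for names and was named for its direction.

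Constitutive proteasome genes, the known targets of NRF1, were lower in 10 of 31 tested cases and higher in 0, beside 7.03% and 15.3% of all genes tested, with a median of -0.28. At an unadjusted p under 0.05 in limma, 19 were lower (61.3%) and 0 higher, against 1381 lower (13.6%) and 2239 higher among all 10182 genes tested. At the same threshold 18 of 32 NRF2 targets were lower and 1 higher, and 5 of 9 BACH1 targets were lower and 1 higher. The lists were chosen with earlier results of these data known, so these counts are not independent evidence. PSMD1, PSMC1, PSMD3 and PSMA5 fell by 0.44, 0.42, 0.42 and 0.38 on the log2 scale. The number past the test depended on single libraries and on scaling. It was smaller without wild-type replicate 1, knockdown replicate 1 or knockdown replicate 2. It was 6 under quantile normalization, 3 under cyclic loess normalization, 3 with the replicate number as a block and 2 with no filter. The median of the list lay between -0.28 and -0.17 in these fits. Genes with a mean over 50 RPKM, the range of many proteasome and NRF2 target genes, had a median difference of -0.10 over 885 genes, of which 13.6% passed as lower. The part of level in the list counts was not tested.

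**Figure D5:**
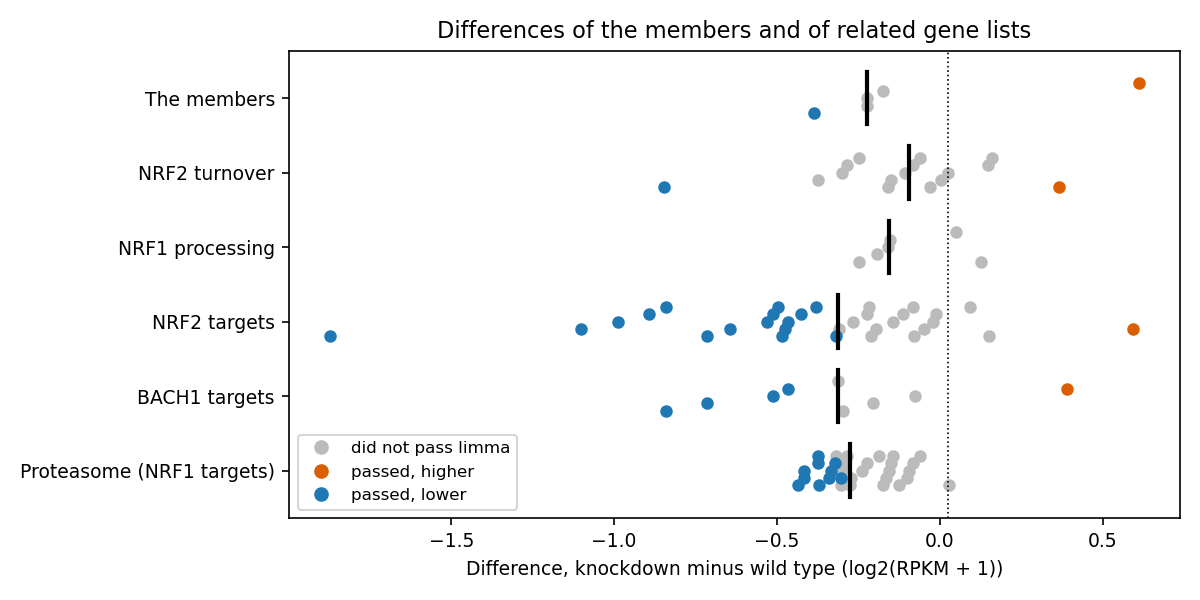
Difference between knockdown and wild type on the log2(RPKM + 1) scale (x axis) of tested members and of genes in related lists (y axis), with 1 point per gene, blue or orange where limma's adjusted p was under 0.05, black bars at list medians and the dotted line at the median of all genes tested. MAFK is the rightmost member at 0.61, and NRF2 targets reach -1.87.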

How the data were processed

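The authors deposited expression values whose form is that of RPKM, a unit inferred from the values, and PSI as a fraction from 0 to 1, named so per the file headers. They also gave a spread of PSI per event, which is not the full range over the libraries. STAR 2.6.1 and the build hg38 are given per the submitters' processing notes. The counter is not given in the sources used here, nor are its strand setting, the gene annotation or the program that called splicing events. From the RPKM, log2(RPKM + 1) of genes averaging at least 1 RPKM in either group was fitted with limma 3.58.1 (R 4.3.3; trended empirical Bayes, two-sided, adjusted by Benjamini-Hochberg over all genes tested, 2 libraries per group, no covariate). Calls were made at an adjusted p under 0.05. PSI of events with 4 values was fitted with limma, with a minimum difference of 0.1. Both fits were first tested on simulated data. Alternatives were other pseudocounts, filters and scalings, the replicate number as a block, a transformed PSI and leaving out each library. Genes were named from gene name tables (16921 of 17041 IDs) or GENCODE v29 (85 more). Splice sites came from GENCODE v29 transcripts, promoters from RefSeq (GRCh38.p14).

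The members and lists were chosen with earlier results of these data known. Named were all members and their events, up to 4 genes of each list with the largest difference among those past the test or, where none passed, the 2 with the highest level, and the 3 genes most like MAFK and NFE2L2. CUL3, IDH1 and SLC40A1 were named after their values were seen. Markers of the line and of other cell types were named where the table held them, and PSMA2 after its values were seen. The result of 1 further list is not reported here.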

Additional observations from a re-analysis of the deposited data

How the results depend on the processing

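The count of 2271 genes past limma's test (68.5% of them higher) was 1423 with a filter at a mean of 5 RPKM (55.9% higher) and stayed within 1.5 times in the other planned settings, from 1707 to 1998 with single libraries left out, while the share of higher genes was 52.5% under quantile normalization and 79.2% with no filter. Of the members, 2 passed; 1 passed with no filter, and 1 to 2 with single libraries left out. The 4 splicing events past the test became 0 without any single library in limma, where 312 to 373 events had an unadjusted p under 0.05; these fits hold 3 libraries. BACH1 and MAFF have no value under quantile and cyclic loess normalization, and MAFG has none with the filter at a mean of 5 RPKM.

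Replicate numbers did not pair the libraries: deviations of same-numbered libraries correlated at -0.444 over 10182 genes and -0.0396 over 3744 events. With 2 libraries per group, crossed numbers (replicate 1 of either group with replicate 2 of the other) give the same size with the opposite sign. Expression thus held variation shared between crossed numbers, whose source was not tested. With the replicate number as a block, 1718 genes, 1 member (MAFK) and 62 events passed, the MAFK event among them. With crossed numbers, an alternative added after the data were seen, 4196 genes and 3 members passed.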

Other observations

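RefSeq promoter windows around gene starts were found for 6 of the 7 members, 12 windows in all. The member without a window was MAFK, so its promoter was not searched. The core of the antioxidant response element, TGACNNNGC on either strand, lay in 2 of the 12 windows (KEAP1 and MAFF), against 13.3% of 35116 windows of the table. A CNC and small MAF site, TGANTCAGC on either strand, lay in 0 of the 12, against 1.36% of all windows. A match is a description of the letters in the window only.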
